A study of Homo sapiens with 3 samples.

Results

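The genes described are 32 members of the machinery that makes cholesterol and fatty acids, out of 58735 genes counted in each library. They were taken by gene name and fall into 18 enzymes of sterol synthesis, 8 enzymes of fatty acid synthesis and desaturation, and 6 genes of sterol sensing and transport. The RNA was that of A549, a cell line established from a human lung adenocarcinoma, and 1 library was made per condition, or 3 in all: Control-sh, DDX24-sh1 and DDX24-sh2. The knockdown lines carried 1 of 2 short hairpin RNAs against DDX24, an RNA helicase of the DEAD-box family, delivered stably by a lentiviral pLKO.1 vector and selected with puromycin. The methods describe the control as the empty vector and a legend as a control shRNA, and the sources leave unsaid which one was sequenced. By the methods all 3 lines share the vector backbone and the drug selection, and each library is a single line of a single cell type. With 1 library per condition there is no replicate, no spread between cultures and no test. Every value is a comparison of these libraries and not of the conditions, and fewer cells with a transcript and less of it per cell cannot be told apart.

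The counts summed to between 17218884 and 18337471 per library, and all 32 members had a mean of 1 CPM or more, CPM being the count scaled to the size of the library. The names of the shRNA libraries disagreed between the deposited kinds of values: counts divided by gene length and scaled by 1 constant per library gave the FPKM to within 1% for 100% of genes with at least 50 counts, but for the shRNA libraries only when their labels were exchanged. With the labels left as they are, 5.23% and 5.17% of genes came within that limit. Which label is right is not known, and the names used below are those carried by the counts. Where 3 counts follow one another they are given in the order control, DDX24-sh1, DDX24-sh2. DDX24 itself had 2010, 637 and 765 counts, which left 29.6% and 36.0% of the control level in the shRNA libraries. The 8 epithelial and A549 markers summed to 178068, 200311 and 187695 counts with 0 of 8 at 0, although EPCAM held only 29 to 32 counts. Markers of other cell types were at or near 0 in each library, with sums of 3 to 7 counts for alveolar type II cells (NKX2-1 and SFTPA1 at 0) and 9 to 14 for endothelium, and with the blood cell markers PTPRC and CD3E at 0. Mitochondrial genes took 4.36%, 5.13% and 7.04% of the counts in the same order, and the part of this shift in the results was not tested.

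Cells build cholesterol from acetyl-CoA through the mevalonate pathway, which leads to squalene, and then through a series of oxidations, reductions and demethylations of the sterol rings. Fatty acids come from the same acetyl-CoA, which is carboxylated, joined into palmitate and then elongated or desaturated. Both pathways are switched on by the transcription factors SREBF1 and SREBF2, which are held in the endoplasmic reticulum with their escort SCAP while INSIG proteins and sterols are plentiful, and which are cut free and enter the nucleus when sterols run short. SREBF1 is known mainly for the fatty acid genes and SREBF2 for the sterol genes.

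In DDX24-sh1 the enzymes of both pathways were higher than in the control almost throughout, by about the same amount. The median log2 ratio to Control-sh was 0.74 over the 18 sterol enzymes and 0.70 over the 8 fatty acid enzymes, against -0.02 over the 13984 genes that averaged 1 CPM or more. In DDX24-sh2 the same medians were 0.14 and 0.05, against -0.03 over all genes. Of these enzymes, only the early sterol enzymes HMGCS1 and IDI1 and the sterol demethylase MSMO1 were at least 1.5-fold above the control there. Over the 6 regulators and transport genes the medians were -0.03 and -0.32.

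Promoters of the members are shown first, because the SREBP proteins act on these genes together with NF-Y, which binds CCAAT, and Sp1, which binds GC-rich boxes. RefSeq promoter windows (GRCh38.p14, 250 bases before to 50 after each start) were found for 28 of the 32 members, in 39 windows. The 4 without an entry are ACAT2, FDFT1, FASN and SQLE. CCAAT, read on both strands, was present for 21 of the 28 members (75.0%), namely 13 of 15 sterol enzymes, 5 of 7 fatty acid enzymes and 3 of 6 regulators, against 39.7% of the 27305 genes in the same table. GGGCGG was present for 27 of 28 members and 48.3% of all genes. All genes here means every gene with a promoter window, expressed in A549 or not, and a gene counted if any of its windows matched. By window, CCAAT was in 64.1% of those of members and 34.6% of all, and GGGCGG in 89.74% and 44.95%. A strict sterol regulatory element, TCACNCCAC, was found in 1 member, SREBF2, and in 1.39% of all genes, and the palindromic E-box TCACGTGA in 1 member, INSIG1, and in 1.18% of all genes. No marked motif overlaps another in the stretches below. A match describes these letters in this window and is not a measured binding site.

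SREBF2 is printed for its sterol element, and the 5 other genes were chosen after their values had been seen, for the 3 highest ratios in DDX24-sh1 (ACSS2, MSMO1 and MVD), the highest in DDX24-sh2 (HMGCS1) and opposite directions in the shRNA libraries (SCD). Each line gives 120 bases, from 200 to 81 bases before the start, 5′ to 3′ on the strand of the gene, for HMGCS1 and ACSS2 from 1 of 2 listed starts. The window of the start not printed held 0 CCAAT boxes for HMGCS1 and 0 for ACSS2. Capitals mark CCAAT boxes in either orientation and, in SREBF2, the sterol element that begins 133 bases before the start.
SREBF2, chr22:41832905-41833024, plus strand: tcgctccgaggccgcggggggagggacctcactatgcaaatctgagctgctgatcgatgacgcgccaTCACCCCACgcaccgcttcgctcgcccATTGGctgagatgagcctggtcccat
MSMO1, chr4:165327469-165327588, plus strand: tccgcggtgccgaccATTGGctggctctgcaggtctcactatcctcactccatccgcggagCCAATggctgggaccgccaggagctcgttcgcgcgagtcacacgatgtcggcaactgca
HMGCS1, chr5:43313493-43313612, minus strand: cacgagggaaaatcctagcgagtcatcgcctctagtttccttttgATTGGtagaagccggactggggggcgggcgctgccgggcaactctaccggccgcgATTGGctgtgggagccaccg
MVD, chr16:88663172-88663291, minus strand: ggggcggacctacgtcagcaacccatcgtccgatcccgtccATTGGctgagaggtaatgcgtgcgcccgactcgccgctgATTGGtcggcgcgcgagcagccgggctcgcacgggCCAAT
ACSS2, chr20:34874789-34874908, plus strand: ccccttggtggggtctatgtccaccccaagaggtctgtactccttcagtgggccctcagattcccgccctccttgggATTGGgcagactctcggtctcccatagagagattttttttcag
SCD, chr10:100347033-100347152, plus strand: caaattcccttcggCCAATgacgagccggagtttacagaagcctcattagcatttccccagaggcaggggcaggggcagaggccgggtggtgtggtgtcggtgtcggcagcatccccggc
MSMO1 and HMGCS1 each hold 2 CCAAT boxes in these stretches, at 185 and 139 and at 155 and 100 bases before the start, and MVD holds 3, at 159, 120 and 85 bases. ACSS2 has 1 at 123 bases, SCD 1 at 186 and SREBF2 1 at 106. In GENCODE 29 the SREBF2 stretch lies before the gene model, and the gene overlaps the antisense RNA SREBF2-AS1 over 1587 bases. The ACSS2 stretch lies inside its gene model, and those of HMGCS1 and SCD end just inside theirs.

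The 7 enzymes of the mevalonate pathway had median log2 ratios of 0.79 and 0.39, and 5 of them were at least 1.5-fold higher in DDX24-sh1. Of all 13984 genes, 7.59% were that much higher in DDX24-sh1 and 8.6% in DDX24-sh2. HMGCS1, which makes HMG-CoA (chromosome 5, 43289395 to 43313512, minus strand), went from 1673 counts in the control library to 3574 and 3168 in the shRNA libraries, or 98.0, 195 and 176 CPM. Its log2 ratios to the control were 0.99 (exact 95% interval 0.91 to 1.08, counting error only) and 0.84 (0.75 to 0.93). Both shRNA libraries were thus high, and HMGCS1 was the member with the highest ratio in DDX24-sh2. IDI1, which interconverts the isoprenoid units, had 1382, 3203 and 2491 counts, with log2 ratios of 1.11 (1.02 to 1.20) and 0.77 (0.67 to 0.87).

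MVD, the decarboxylase that yields isopentenyl diphosphate, had 891, 2130 and 1255 counts, and its log2 ratios were 1.16 (1.04 to 1.27) and 0.41 (0.29 to 0.54). FDPS, which joins the units into farnesyl diphosphate, had 1235, 2288 and 1716 counts and ratios of 0.79 and 0.39. Both genes were clearly higher in DDX24-sh1 and higher by less in DDX24-sh2. ACAT2, the cytosolic thiolase at the head of the pathway, held 932, 1594 and 990 counts, or 54.6, 87.1 and 54.8 CPM, so it was high in DDX24-sh1 alone. The gene shares 558 bases with TCP1 on the opposite strand, a chaperonin gene with 4402 to 5084 counts, and reads there can belong to either where strand was not used in counting.

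The 2 kinases of the pathway had lower ratios than its other enzymes in both libraries. MVK, which phosphorylates mevalonate, had 665, 943 and 627 counts, with log2 ratios of 0.40 (0.26 to 0.55) and -0.17 (-0.33 to -0.0060). MVK overlaps its neighbour MMAB over 620 bases on the opposite strand, and MMAB held 546 to 689 counts. PMVK, which adds the next phosphate, had 527, 487 and 480 counts, and its ratios were -0.21 in each library (-0.39 to -0.033 and -0.40 to -0.034). PMVK was the only sterol enzyme below the control in DDX24-sh1.

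Of all 13984 genes, 47.4% lay above the control in DDX24-sh1 and 47.0% in DDX24-sh2. From squalene on, all 11 enzymes lay above the control in DDX24-sh1, with a median log2 ratio of 0.73, and 7 of them by at least 1.5-fold. In DDX24-sh2 7 of the 11 lay above it, their median was 0.10 and 1 of 11 passed that size. MSMO1, which removes methyl groups from the sterol ring (chromosome 4, 165327623 to 165343160, plus strand), was the highest. It had 1819, 4631 and 3164 counts, or 107, 253 and 175 CPM, and log2 ratios of 1.25 (1.17 to 1.33) and 0.72 (0.63 to 0.80). NSDHL, which works on the same carbon after MSMO1, had 896, 1686 and 1340 counts and ratios of 0.81 (0.69 to 0.93) and 0.50 (0.38 to 0.62). Both were thus higher in both shRNA libraries. HSD17B7, the reductase that completes their step, had 431, 558 and 441 counts and ratios of 0.27 and -0.05. HSD17B7 has 2 pseudogenes of its name with 34 to 66 counts together, and its ratio in DDX24-sh2 was 0.04 when they were added.

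FDFT1, which makes squalene, had 3715, 6608 and 4806 counts, and SQLE, the rate-limiting monooxygenase that oxidises squalene, had 3126, 5722 and 4156. Their log2 ratios were 0.73 and 0.29 for FDFT1 and 0.77 and 0.33 for SQLE, so these consecutive steps moved by nearly equal amounts. LSS, which closes squalene epoxide into lanosterol, had 1472, 2951 and 1771 counts and ratios of 0.90 (0.81 to 0.99) and 0.19 (0.086 to 0.29). CYP51A1, the lanosterol demethylase, was the lowest expressed sterol enzyme per length in the control, at 4.86 CPM per kilobase, and in DDX24-sh2, at 4.10, while in DDX24-sh1 HSD17B7 (6.38) lay below it (6.57). It had 297, 431 and 265 counts and ratios of 0.43 (0.22 to 0.66) and -0.24 (-0.49 to -0.0014). TM7SF2, a sterol reductase, had 381, 650 and 372 counts and ratios of 0.67 and -0.11, the second with an interval that held 0.

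The last steps were close to the control in DDX24-sh2. EBP, the sterol isomerase, had 1540, 2770 and 1681 counts and log2 ratios of 0.75 (0.66 to 0.84) and 0.05 (-0.055 to 0.15). SC5D, a desaturase of the sterol ring, had 483, 758 and 546 counts, and DHCR7, the terminal reductase that yields cholesterol, had 4364, 6780 and 4467. Their ratios in DDX24-sh1 were 0.55 and 0.54, just under 1.5-fold, and the DDX24-sh2 intervals of both genes held 0.

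**Figure D1:**
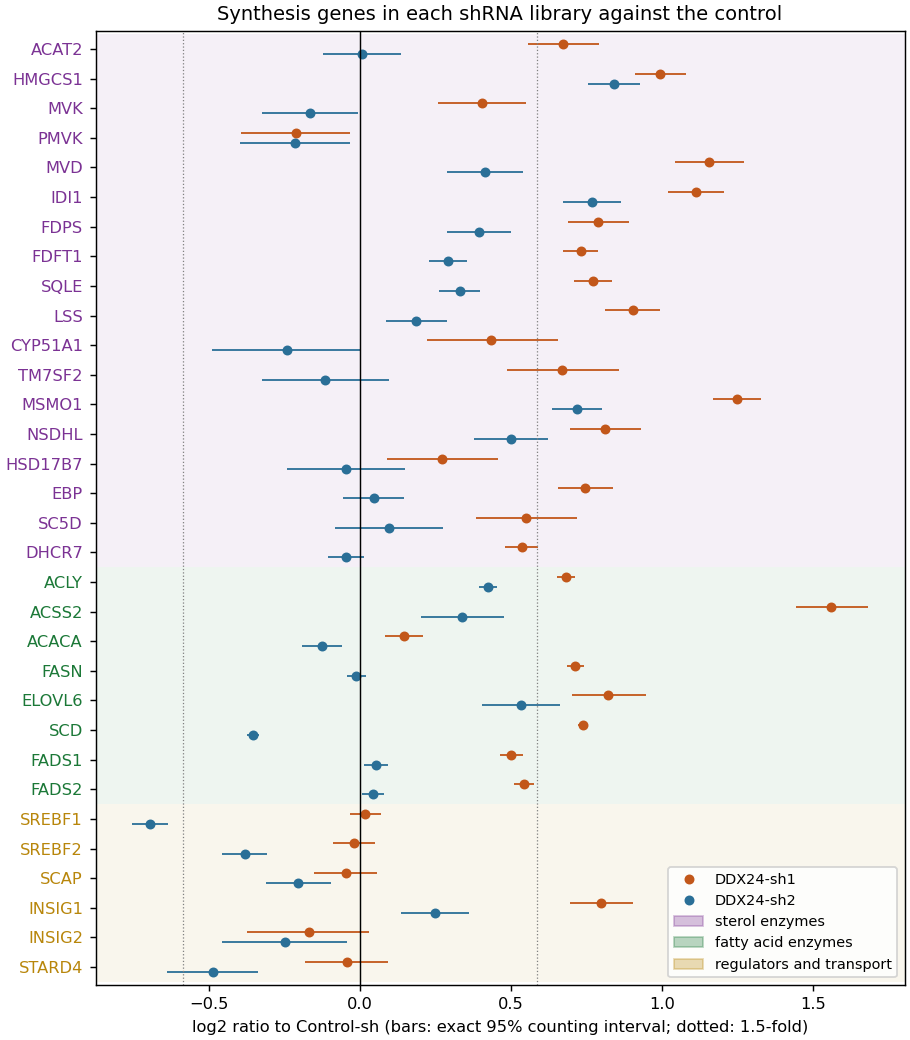
Log2 ratio of each of the 32 genes to Control-sh (x axis) in DDX24-sh1 (orange) and DDX24-sh2 (blue), grouped from top to bottom as sterol enzymes, fatty acid enzymes, and regulators and transport, with exact 95% intervals for counting error and dotted lines at 1.5-fold. In DDX24-sh1 17 of 18 sterol and 8 of 8 fatty acid enzymes lie above 0, with 47.4% of all 13984 genes. In DDX24-sh2 12 of 18 and 5 of 8 lie above 0, with 47.0% of all genes, and 3 sterol enzymes (HMGCS1, IDI1 and MSMO1) pass 1.5-fold.

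The fatty acid enzymes were higher than the control in DDX24-sh1 in 8 of 8 cases, where 47.4% of all genes were. At least 1.5-fold higher there were 5: ACLY, ACSS2, FASN, ELOVL6 and SCD. In DDX24-sh2 5 of 8 were higher, where 47.0% of all genes were. None of the 8 reached 1.5-fold in either direction there, and their ratios ran from -0.35 to 0.53. ACSS2, which makes acetyl-CoA from acetate (chromosome 20, 34872146 to 34927962, plus strand), had 753, 2382 and 1008 counts, or 44.1, 130 and 55.8 CPM. Its log2 ratios were 1.56 (1.44 to 1.68) and 0.34 (0.20 to 0.48), and the first was the highest of all 32 members. ACSS2 overlaps GGT7 on the opposite strand over 715 bases, and GGT7 held 185 to 277 counts. ACLY, which makes acetyl-CoA from citrate, had 14428, 24823 and 20464 counts and ratios of 0.68 (0.65 to 0.71) and 0.42 (0.39 to 0.45). Both suppliers of acetyl-CoA, which serve the sterol pathway as well, were above the control in both libraries.

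SCD, the stearoyl-CoA desaturase that makes monounsaturated fatty acids (chromosome 10, 100347124 to 100364834, plus strand), was the most highly expressed member per length in each library, at 530 CPM per kilobase in the control library and 885 and 415 in the shRNA libraries. Its counts were 48549, 86834 and 40149. The log2 ratio was 0.74 (0.72 to 0.76) in DDX24-sh1 and -0.35 (-0.37 to -0.34) in DDX24-sh2, so DDX24-sh1 was above the control and DDX24-sh2 below it. FASN, the synthase that builds palmitate, had 16450, 28900 and 17243 counts and ratios of 0.71 (0.69 to 0.74) and -0.01 (-0.044 to 0.018). The sign of the latter turned to 0.02 when libraries were scaled by total counts.

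ACACA, the carboxylase that commits acetyl-CoA to fatty acids, moved least of the fatty acid enzymes in DDX24-sh1. It had 3775, 4478 and 3656 counts and log2 ratios of 0.15 (0.084 to 0.21) and -0.13 (-0.19 to -0.061). ELOVL6, which elongates palmitate, had 820, 1555 and 1255 counts and ratios of 0.82 (0.70 to 0.95) and 0.53 (0.41 to 0.66), the highest of the fatty acid enzymes in DDX24-sh2. FADS1 and FADS2, neighbouring desaturases of polyunsaturated fatty acids, had 9324, 14138 and 10231 and 11699, 18255 and 12749 counts. Their ratios were 0.50 and 0.54 in DDX24-sh1 and 0.05 and 0.04 in DDX24-sh2. The gene models of this pair overlap over 29694 bases on opposite strands, and FADS2 also overlaps FEN1 over 4265 bases, so their counts may not be separate measurements.

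**Figure D2:**
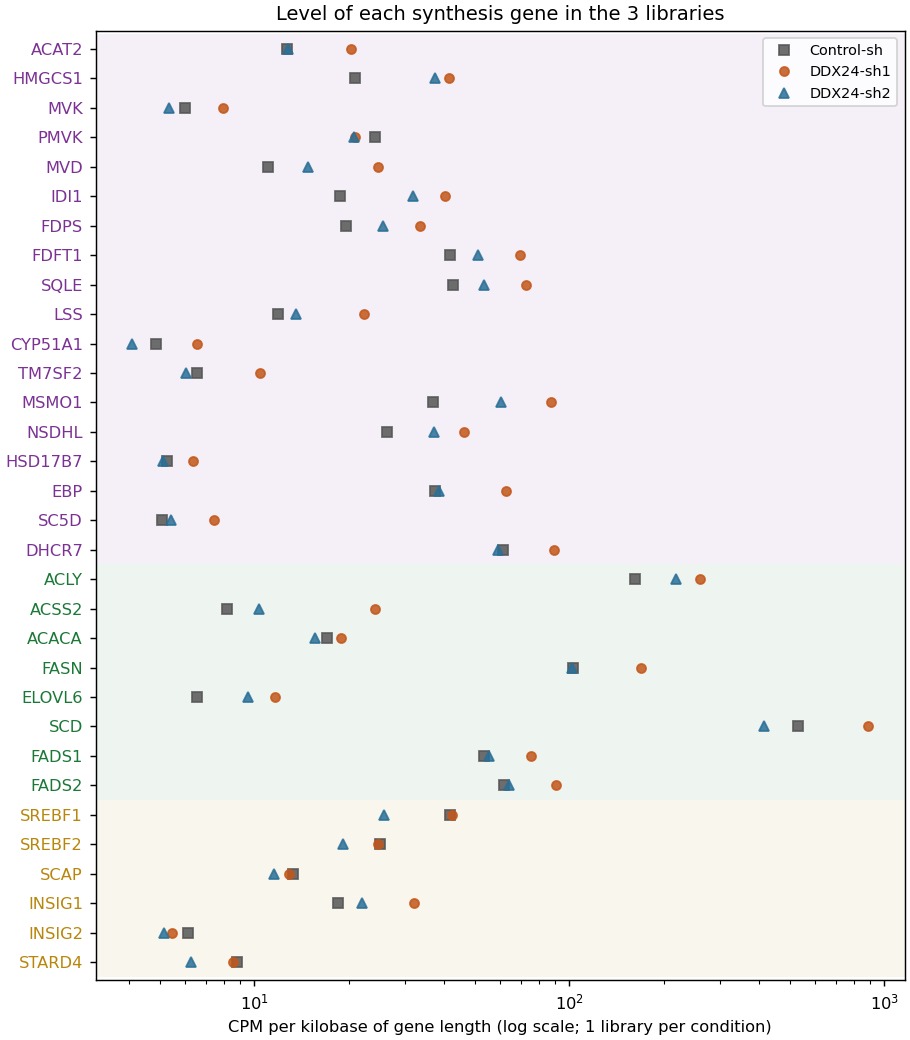
Level of each of the 32 genes in CPM per kilobase of gene length (x axis, log scale) in Control-sh (grey squares), DDX24-sh1 (orange circles) and DDX24-sh2 (blue triangles), 1 library each. SCD stands highest at 415 to 885, and for most enzymes the DDX24-sh1 point lies to the right of the other two.

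Set against each other, the pathways differed little in either library. The sterol median exceeded the fatty acid median by 0.04 log2 units in DDX24-sh1 and by 0.09 in DDX24-sh2. In DDX24-sh1 17 of 18 sterol ratios fell within the range of the fatty acid ratios and 7 of 8 fatty acid ratios within the sterol range, and in DDX24-sh2 these counts were 15 and 7. The ranges overlapped almost fully, but a range rests on its extremes, which in DDX24-sh1 are ACACA and ACSS2 for the fatty acid enzymes. Whether the medians differ was not tested. At least 1.5-fold higher were 12 of 18 sterol (66.7%) and 5 of 8 fatty acid enzymes (62.5%) in DDX24-sh1, and 3 of 18 (16.7%) and 0 of 8 in DDX24-sh2. In both libraries together the counts were 3 of 18 and 0 of 8, with 4.23% of all genes. No enzyme was 1.5-fold lower in either library, whereas 8.25% of all genes were in DDX24-sh1, 9.51% in DDX24-sh2 and 4.72% in both. With HMGCS1, IDI1 and MSMO1 the higher ones, counting intervals in DDX24-sh2 lay above 0 for 9 sterol enzymes, below 0 for 3 (MVK, PMVK and CYP51A1) and across 0 for 6. No such count of intervals was made over all genes.

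Summed counts, which weight the highly expressed genes, separated the pathways more in DDX24-sh2. The 18 sterol enzymes together took 25829, 47764 and 33736 counts, which is 0.150%, 0.260% and 0.189% of all counts. The 8 fatty acid enzymes took 105798, 181365 and 106755 counts, or 0.614%, 0.989% and 0.598%. On the log2 scale the sums were 0.79 and 0.30 above the control for sterols, and 0.68 and -0.07 for fatty acids. SCD alone made up 45.9%, 47.9% and 37.6% of the fatty acid sum. Without it the other 7 summed to 57249, 94531 and 66606 counts, with log2 ratios of 0.62 (0.61 to 0.64) and 0.14 (0.12 to 0.15).

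Most regulators lay near the control in DDX24-sh1 and below it in DDX24-sh2. SREBF1, the factor known for the fatty acid genes (chromosome 17, 17810399 to 17837002, minus strand), had 5724, 6210 and 3741 counts, or 335, 340 and 207 CPM. Its log2 ratios were 0.02 (-0.034 to 0.070) and -0.69 (-0.75 to -0.63). DDX24-sh1 thus matched the control within counting error while DDX24-sh2 was low, which made SREBF1 the only member at least 1.5-fold below the control in any library. SREBF1 overlaps RAI1 over 1055 bases on the opposite strand, and RAI1 held 2116 to 2645 counts. SREBF2, whose promoter holds the sterol element printed above, had 3223, 3409 and 2615 counts and ratios of -0.02 (-0.089 to 0.051) and -0.38 (-0.46 to -0.31).

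SCAP, the sterol sensor that escorts both factors, had 1458, 1512 and 1338 counts and log2 ratios of -0.05 and -0.20. INSIG1, which retains SCAP and is itself induced by the SREBP proteins, was the exception among the regulators. It had 1147, 2139 and 1441 counts, or 67.2, 117 and 79.8 CPM, and ratios of 0.80 (0.70 to 0.90) and 0.25 (0.14 to 0.36), close to those of SQLE and FDPS. INSIG2, its sterol-binding relative, had 415, 395 and 369 counts and ratios of -0.17 and -0.25. STARD4, which carries cholesterol between membranes, had 853, 887 and 643 counts and ratios of -0.04 (-0.18 to 0.094) and -0.49 (-0.64 to -0.34). Counting intervals of 5 of the 6 lay below 0 in DDX24-sh2, and 5 of the 6 held 0 in DDX24-sh1. The same shares over all genes were not computed.

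**Figure D3:**
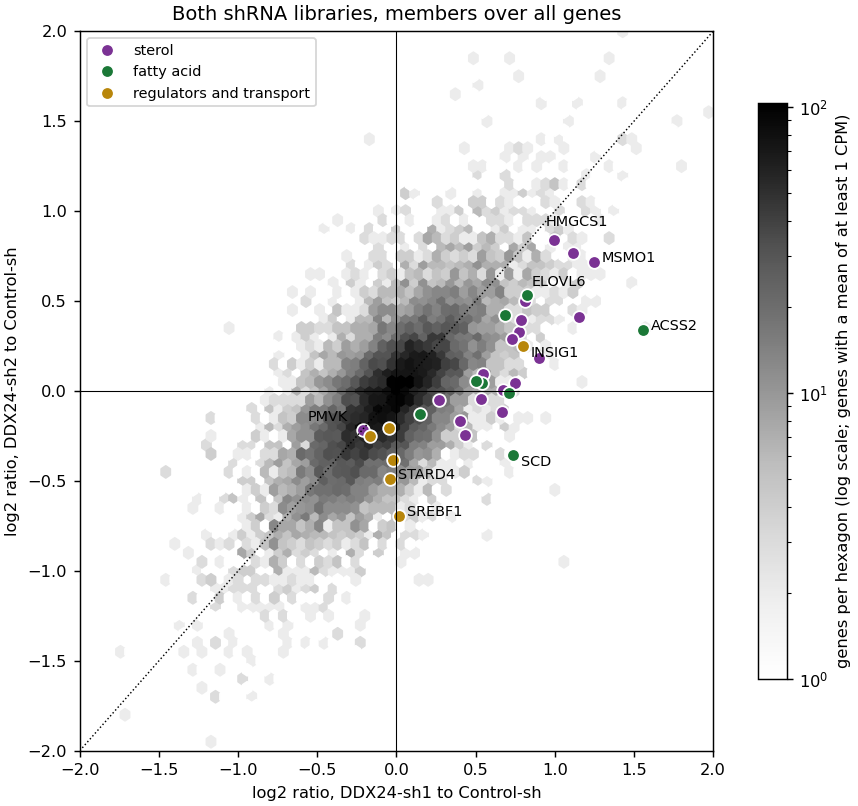
Log2 ratio to Control-sh in DDX24-sh1 (x axis) and DDX24-sh2 (y axis) of the 18 sterol (purple), 8 fatty acid (green) and 6 regulator and transport genes (gold), over a grey map of the number of genes per hexagon, with the line of equal ratios dotted. Both axes share the control library, 103 genes with a ratio beyond 2 in size are not drawn, and all 32 members lie on or below the dotted line.

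Because both ratios share Control-sh, the shRNA libraries were also compared directly. All 32 members were lower in DDX24-sh2 than in DDX24-sh1, and 30 of them beyond counting error, the exceptions being PMVK and INSIG2. How many of all genes lay beyond counting error was not computed, so the 30 have no background. PMVK stood at -0.0018 log2 units and turned to 0.02 when libraries were scaled by total counts. Of all 13984 genes 51.8% were lower in DDX24-sh2 than in DDX24-sh1. The median of this direct log2 ratio was -0.49 for the sterol enzymes, -0.47 for the fatty acid enzymes and -0.40 for the regulators, against -0.01 for all genes. At least 1.5-fold lower were 6 sterol enzymes, 3 fatty acid enzymes and 1 regulator, which is 10 of 32 (31.3%) where 4.84% of all genes were. None of the 32 was 1.5-fold higher, as 5.33% of all genes were.

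The direct ratios were largest in size for ACSS2, at -1.22 (-1.33 to -1.11), and SCD, at -1.09 (-1.11 to -1.08). TM7SF2 (-0.78), MVD (-0.74), FASN (-0.73), LSS (-0.72), SREBF1 (-0.71) and EBP (-0.70) followed. HMGCS1 was among the nearest to equal, at -0.15 (-0.22 to -0.085). DDX24 was itself 1.22-fold higher in DDX24-sh2 than in DDX24-sh1, at a log2 ratio of 0.28 (0.13 to 0.44). With 1 library of each, a difference between the shRNAs and a difference between the cultures cannot be told apart.

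Genes around these pathways were read from 8 further lists. Among 11 other targets of the SREBP factors the median log2 ratios were 0.34 and 0.08. At least 1.5-fold higher were 3 of 11 in DDX24-sh1, where 7.59% of all genes were, and 0 in DDX24-sh2, where 8.6% were. Those 3, named after their values were seen, were PNPLA3, a lipid droplet lipase (78, 199 and 124 counts), LPIN1, a phosphatidate phosphatase (1707, 3769 and 2518), and PCYT2 of phosphatidylethanolamine synthesis (681, 1248 and 903). Their ratios in DDX24-sh1 were 1.23, 1.04 and 0.77. Of the 11, 10 lay above the control in DDX24-sh1, where 47.4% of all genes did. The other was GPAM, named after its values were seen, with 389, 343 and 353 counts. Its ratios were below the control in both libraries, at -0.28 (-0.50 to -0.068) and -0.22 (-0.43 to -0.0092). The 11 genes of SREBP processing and degradation had medians of 0.01 and -0.06. ERLIN2, a scaffold of the degradation machinery in the endoplasmic reticulum, had 1082, 647 and 556 counts and was lower in both libraries, at -0.84 (-0.98 to -0.70) and -1.04 (-1.19 to -0.89).

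LXR receptors and targets, which answer to an excess of sterols, had medians of -0.10 and -0.34 over 9 genes. ABCG1, a cholesterol exporter, had 222, 147 and 47 counts and log2 ratios of -0.69 (-1.01 to -0.39) and -2.27 (-2.81 to -1.86). Other genes of that list, named after their values were seen, did not share this direction throughout. The receptor NR1H3 had 211, 342 and 284 counts and ratios of 0.59 (0.35 to 0.85) and 0.35 (0.086 to 0.61), and the exporter ABCA1 had 1573, 2390 and 1740 counts and ratios of 0.50 (0.41 to 0.60) and 0.06 (-0.034 to 0.16). SMPDL3A, at 84, 78 and 58 counts, was past 1.5-fold lower in DDX24-sh2 (-0.60). Over 13 genes of sterol transport and storage the medians were 0.09 and -0.10. At least 1.5-fold lower in both libraries was 1 gene, where 4.72% of all genes were. That gene was VLDLR, a lipoprotein receptor, with 1122, 323 and 357 counts and ratios of -1.89 (-2.08 to -1.72) and -1.73 (-1.91 to -1.56). Others of that list, named after their values were seen, were past 1.5-fold in 1 library and moved the same way by less in the other. SCARB1, a receptor for high-density lipoprotein, stood at 0.73 in DDX24-sh1 and 0.33 in DDX24-sh2. LIPA, the lysosomal acid lipase, stood at 0.62 and 0.25. NPC1, GRAMD1A and GRAMD1B, which move sterols out of lysosomes and from the plasma membrane, stood at -0.64, -0.65 and -0.83 in DDX24-sh2. In DDX24-sh1 these 3 ratios were -0.44, -0.38 and -0.22. GRAMD1C stood at 0.61 in DDX24-sh2, but on 13 to 22 counts per library. ABCG1 and VLDLR were thus low in both libraries, VLDLR by more than any member moved.

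Branches that use the same intermediates had medians near the control. For the counts below, 7.59% of all genes were at least 1.5-fold higher and 8.25% lower in DDX24-sh1. In DDX24-sh2 these shares were 8.6% and 9.51%, and in both libraries 4.23% and 4.72%. Isoprenoid use (11 genes) had median log2 ratios of -0.13 and 0.03, and COQ2 of ubiquinone synthesis was its gene past 1.5-fold in both libraries, with 448, 294 and 315 counts and ratios of -0.70 and -0.59. PDSS1, of the same ubiquinone pathway and named after its values were seen, went the other way in DDX24-sh2, with 138, 165 and 246 counts and ratios of 0.16 (-0.18 to 0.49) and 0.75 (0.45 to 1.06). Other genes of fatty acid elongation and activation (19 genes, 18 of them averaging 1 CPM or more) had medians of 0.09 and 0.02 and 0 of 19 past 1.5-fold. Fatty acid oxidation (17 genes) had 0.17 and 0.08, with 1 gene past 1.5-fold, in DDX24-sh2 alone: CPT2, a mitochondrial carnitine transferase named after its values were seen (95, 148 and 155 counts, ratios of 0.53 and 0.62). Triglyceride synthesis and lipid droplets (10 genes) had 0.04 and -0.10, with relatives of the phosphatase family in opposite directions. LPIN3 had 229, 409 and 525 counts and ratios of 0.73 and 1.11, and LPIN2 had 1031, 645 and 658 counts and ratios of -0.77 and -0.73.

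**Figure D4:**
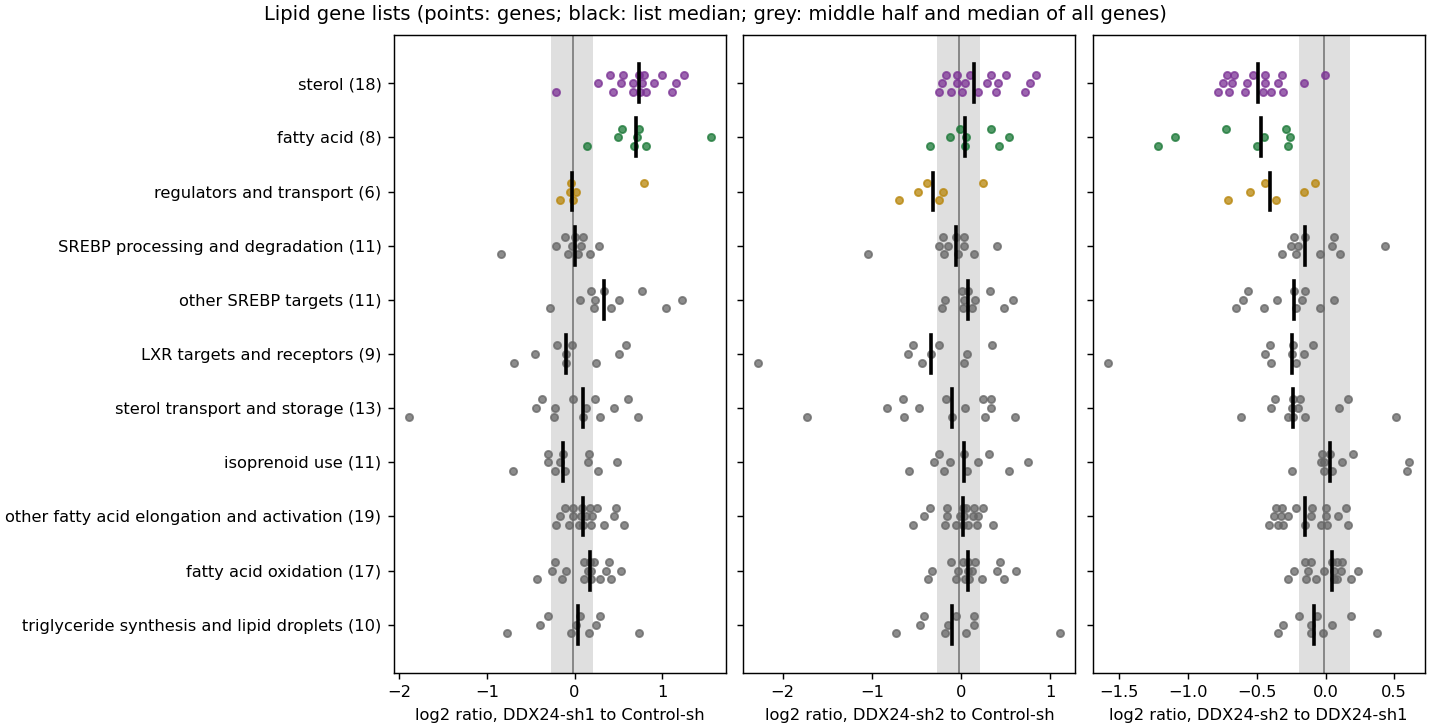
Log2 ratios (x axes) of the genes of 11 lipid lists, with the number of genes in brackets, for DDX24-sh1 to Control-sh, DDX24-sh2 to Control-sh and DDX24-sh2 to DDX24-sh1. Points are genes, black bars are list medians, and the grey band spans the 25th to 75th percentile of all 13984 genes (-0.26 to 0.21, -0.27 to 0.21 and -0.19 to 0.18). The sterol and fatty acid medians of 0.74 and 0.70 in DDX24-sh1 lie to the right of the band and those in DDX24-sh2 inside it.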

How the data were processed

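RNA of A549 cells was sequenced in 3 libraries, 1 per condition, and libraries were assigned to conditions from their titles. The authors deposited a table of raw, whole-number counts on 58735 genes for each library, and a table of FPKM values on the same genes. The submitters' processing notes name Bowtie2 2.0.6, TopHat2 2.0.9, Cufflinks 2.1.1 and Cuffdiff 2.1.1, while the counting tool, its use of strand and the genome build are not given in the sources used here. Identifiers, starts and ends are those of GENCODE 29 on GRCh38.

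Ratios were computed from the counts with R 4.3.3 and edgeR 4.0.16 as log2 CPM after TMM scaling of all genes (factors 0.991, 0.997 and 1.01) with a prior count of 2. No p-value was computed. The exact 95% conditional binomial (Clopper-Pearson) interval of a ratio uses 2 counts and covers counting error only, and reads without identifiers need not be separate molecules. A gene was counted as higher or lower past 1.5-fold (0.585 in log2 units), over all genes averaging 1 CPM or more. CPM per kilobase used the gene lengths in the files.

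The members and lists were chosen with earlier results of these data known. All 32 members are named. From the other lists, the genes named are those averaging 5 CPM or more and past 1.5-fold in the same direction in both shRNA libraries, at most 4 per list. Genes of those lists that passed 1.5-fold in 1 library are also named, and so are ABCA1 and GPAM, which passed it in neither. These were chosen after their values had been seen. Some of the genes overlapping a member and, for promoters, the member with a sterol element are named as well. Of the pseudogenes with a member's name, only those of HSD17B7 are described. Some genes of these pathways and marker lists are not reported here. Only the ratios and intervals were tried on simulated counts, drawn with known library sizes and the counting error that the intervals assume. This could not test the scaling, the lists, the motifs or the spread between cultures. Alternatives were DESeq2 1.42.0 size factors, total counts, a prior count of 0.5, log2(FPKM + 0.1) with the shRNA labels as deposited and exchanged, a 2-fold limit, no expression filter, a filter at 10 CPM, protein-coding genes only, other list definitions, and sums with pseudogenes. Plots used Python 3.11.15 with matplotlib 3.10.9.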

Additional observations from a re-analysis of the deposited data

Results flagged for a closer look

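In 4 members the shRNA libraries lay on opposite sides of the control with both counting intervals beyond 0, although the difference was not tested, since each condition has 1 library. How many of all genes did so was not computed, so the 4 have no background. SCD was 0.74 log2 units above the control in DDX24-sh1 and below it in DDX24-sh2, at a ratio of -0.35, and DDX24-sh2 to DDX24-sh1 stood at -1.09. For CYP51A1 the ratios were 0.43 and -0.24 and the direct ratio was -0.68. For MVK they were 0.40 and -0.17, with a direct ratio of -0.57, and for ACACA 0.15 and -0.13, with a direct ratio of -0.27. The intervals of MVK and CYP51A1 in DDX24-sh2 end at -0.0060 and -0.0014, at the edge of counting error.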

How the results depend on the processing

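No paired analysis was possible because each condition has 1 library, which also leaves no replicate to omit. DESeq2 size factors, a prior count of 0.5 and total counts left every list median and count of members where it was. The limits were the typical counting error of a single gene for medians and 1.5 times for counts. So did the FPKM with exchanged labels, but these are the same counts divided by gene length and 1 constant per library. Their agreement was thus fixed in advance. SCD in DDX24-sh2 was -0.33 under total counts. Under the latter FASN in DDX24-sh2 and PMVK between the shRNA libraries turned to 0.02, and with pseudogenes HSD17B7 in DDX24-sh2 turned to 0.04, all within counting error of 0. Under the other list definitions the difference of the sterol and fatty acid medians changed by less than a limit set from single-gene counting intervals. That limit is not the counting error of a difference between medians.

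The FPKM under their own labels gave each shRNA library the values of the other. The sterol medians were then 0.149 in DDX24-sh1 and 0.751 in DDX24-sh2, those of the fatty acid list 0.0573 and 0.711, and those of the regulators -0.304 and -0.0179. Past 1.5-fold higher were 3 and 12 sterol, 0 and 5 fatty acid and 0 and 1 regulator genes, and 1 and 0 regulators were lower. The same 9 of 32 members changed sign in each library, all to negative in DDX24-sh1 and all to positive in DDX24-sh2: MVK, CYP51A1, TM7SF2, HSD17B7, DHCR7, ACACA, FASN, SCD and SREBF1. Of those past 1.5-fold in the counts, FASN turned to -0.0037, SCD to -0.35 and TM7SF2 to -0.10 in DDX24-sh1 and SREBF1 to 0.031 in DDX24-sh2.

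At a 2-fold limit, 3 sterol genes (0 in DDX24-sh2 and 0 in both), 1 fatty acid gene and 0 regulators were higher in DDX24-sh1, and 0 regulators were lower in DDX24-sh2. Over all genes, 325 were then higher and 318 lower in DDX24-sh1, 404 and 430 in the other library, and 167 and 193 in both, against 1062, 1153, 1202, 1330, 592 and 660 at 1.5-fold. Without a filter these counts were 3898, 4610, 4622, 4406, 1919 and 2613, and at 10 CPM or more they were 340, 586, 336, 682, 160 and 371, since other genes are tested.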
